A study of Mus musculus with 12 samples.

Results

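The dual-specificity MAP kinase phosphatases described here were 9 genes, *Dusp1* (NCBI Gene 19252), *Dusp2* (13537), *Dusp4* (319520), *Dusp5* (240672), *Dusp6* (67603), *Dusp7* (235584), *Dusp8* (18218), *Dusp10* (63953) and *Dusp16* (70686). They were taken by symbol from the 16234 genes counted in bone marrow-derived mast cells (BMMCs), and all 9 passed the filter on low counts, which left 12208 genes for testing. BMMCs are mast cells grown from mouse marrow with IL-3 and SCF, here for 4 to 8 weeks, after which over 80% of the cells carried both CD117 and FcϵRI. The mice were conventional *Elk4* knockouts on a C57BL/6N background and their littermates, 6 to 12 weeks old. The 12 libraries formed 6 groups of 2, namely cells with the *Elk4* label WT (wild type), HZ (heterozygous) or KO (knockout), either untreated or stimulated by 0.5 µg/ml anti-DNP IgE overnight and then 100 ng/ml DNP-HSA for 1 h. DNP-HSA binds the IgE held by FcϵRI and crosslinks the receptor. The labels do not say whether untreated cells received IgE, nor whether the 2 libraries of a group came from separate mice or cultures. The p-values below thus rest on the spread between these libraries, estimated with information shared across genes, and that spread may be technical.

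MAP kinases are switched on by phosphorylation of a threonine and a tyrosine in their activation loop, and these phosphatases remove both phosphates. *Dusp1*, *Dusp2*, *Dusp4* and *Dusp5* encode nuclear enzymes known as products of rapidly induced genes, of which the *Dusp5* product prefers ERK. *Dusp6* and *Dusp7* encode cytoplasmic enzymes that prefer ERK, while the products of *Dusp8*, *Dusp10* and *Dusp16* act mainly on JNK and p38. FcϵRI crosslinking activates ERK, JNK and p38 in mast cells, and the phosphatases are part of the negative feedback on that signal. ELK4 is a ternary complex factor, an ETS family protein that MAP kinases phosphorylate and that binds DNA together with SRF.

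Each library held 29697958 to 35531667 counts on genes, and the biological coefficient of variation between replicates was 4.01%. *Elk4* itself stood at 63.5 to 69.7 CPM in the untreated libraries labelled KO and at 73.2 to 78.3 CPM in those labelled WT, where CPM is the count normalized to library size with edgeR's TMM factors. In HZ it stood at 86.0 to 93.2 CPM untreated and at 63.7 to 65.2 CPM stimulated. Stimulated libraries stood at 67.0 to 78.2 CPM in WT and at 67.1 to 68.5 CPM in KO. KO was thus lowest among untreated libraries, without overlap, while stimulated KO lay within the range of stimulated WT and above stimulated HZ. The count over the whole gene therefore did not set the KO libraries apart from all others. The part of *Elk4* that was deleted is not given in the sources used here, the study examined the deletion by western blotting of ELK4 protein, which is not among these data, and WT, HZ and KO stand below for libraries so labelled. Mast cell markers were present in all libraries, with *Kit* and *Fcer1a* among them and a summed level of 46872 to 57534 CPM over 10 of 10 markers. Not all were steady, as *Hdc* stood at 16.9 to 17.1 CPM in untreated KO and 122 to 131 CPM in untreated WT. *Hdc* reached 1106 to 1116 CPM in stimulated WT and 290 to 316 CPM in stimulated KO. The summed level of 3 basophil markers was 465 to 674 CPM, nearly all of it *Cd200r3* (454 to 667 CPM). The summed level of 6 macrophage markers was 26.2 to 47.8 CPM in untreated and 54.1 to 63.0 CPM in stimulated libraries, most of it *Cd68* (20.3 to 56.6 CPM) and *Adgre1* (2.96 to 7.26 CPM), with *C1qa*, *Marco* and *Mrc1* at or near 0. The summed level of 3 dendritic cell markers was 4.34 to 7.58 CPM in WT and 0.791 to 1.84 CPM in HZ and KO, almost all of it *Itgax*, with *Flt3* and *Cd209a* at 0 to 0.034 CPM in every library. These sums moved with stimulation and with genotype, and their part in the results below was not tested. In bulk RNA, fewer cells of a type and less RNA per cell cannot be told apart.

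Measured per gene length, *Dusp4*, *Dusp6* and *Dusp5* were the most abundant of the 9 in untreated WT cells, with 32.0%, 26.7% and 24.8% of their summed FPKM. FPKM is the count scaled by gene length and library total, as deposited. *Dusp16* held 5.97%, *Dusp7* 3.54%, *Dusp1* 3.33%, *Dusp8* 2.55%, *Dusp10* 0.823% and *Dusp2* 0.267%. The summed level of the 9 genes in untreated cells was 139 ± 0.905 FPKM (SD, n = 2) in WT, 88.7 ± 1.80 in KO and 61.1 ± 2.32 in HZ. After stimulation it was 595 ± 6.88 FPKM in WT, 617 ± 5.03 in KO and 582 ± 3.13 in HZ. The 3 genotypes thus lay further apart in summed level, as ratios, without stimulation than with it, and the make-up of the stimulated sum differed. *Dusp1* held 15.4% ± 0.183 of the stimulated sum in WT, 35.5% ± 0.895 in HZ and 39.8% ± 0.344 in KO. *Dusp4* held 45.1%, 35.8% and 36.4% and *Dusp6* 23.9%, 16.9% and 12.2% in the same order of genotypes.

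**Figure D1:**
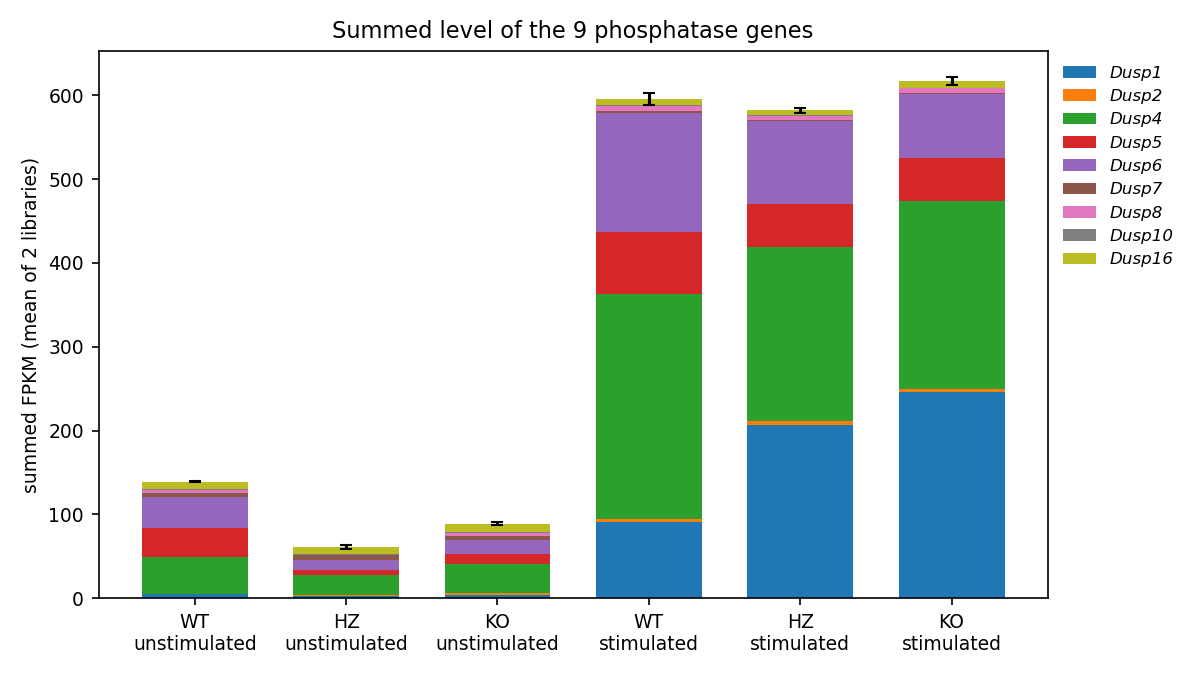
Stacked bars of the mean FPKM of the 9 phosphatase genes in the 6 groups (y axis, summed FPKM, from 0), with the error bar as the SD of the sum over 2 libraries. The stimulated sums lie between 582 and 617 FPKM, while the *Dusp1* segment is wider in HZ and KO than in WT.

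Stimulation raised 6 of the 9 genes in every genotype, namely *Dusp1*, *Dusp2*, *Dusp4*, *Dusp5*, *Dusp6* and *Dusp8*, and lowered *Dusp7* and *Dusp10*. A gene was called at an adjusted p below 0.05 with a change of at least 2-fold. Of all genes tested, 3.71% rose and 3.06% fell by this rule in WT, 7.02% rose and 7.28% fell in HZ, and 3.73% rose and 2.88% fell in KO. The median log2 fold change of the 9 genes was 1.41 in WT, 2.77 in HZ and 1.43 in KO, beside −0.01, −0.0048 and −0.0068 over all genes. For the 8 called genes, no stimulated library overlapped any untreated one across the 3 genotypes. The share of all genes with such a gap was not computed, and genes called in every genotype are likely to have one. *Dusp16* passed the fold threshold in none of the genotypes.

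**Figure D2:**
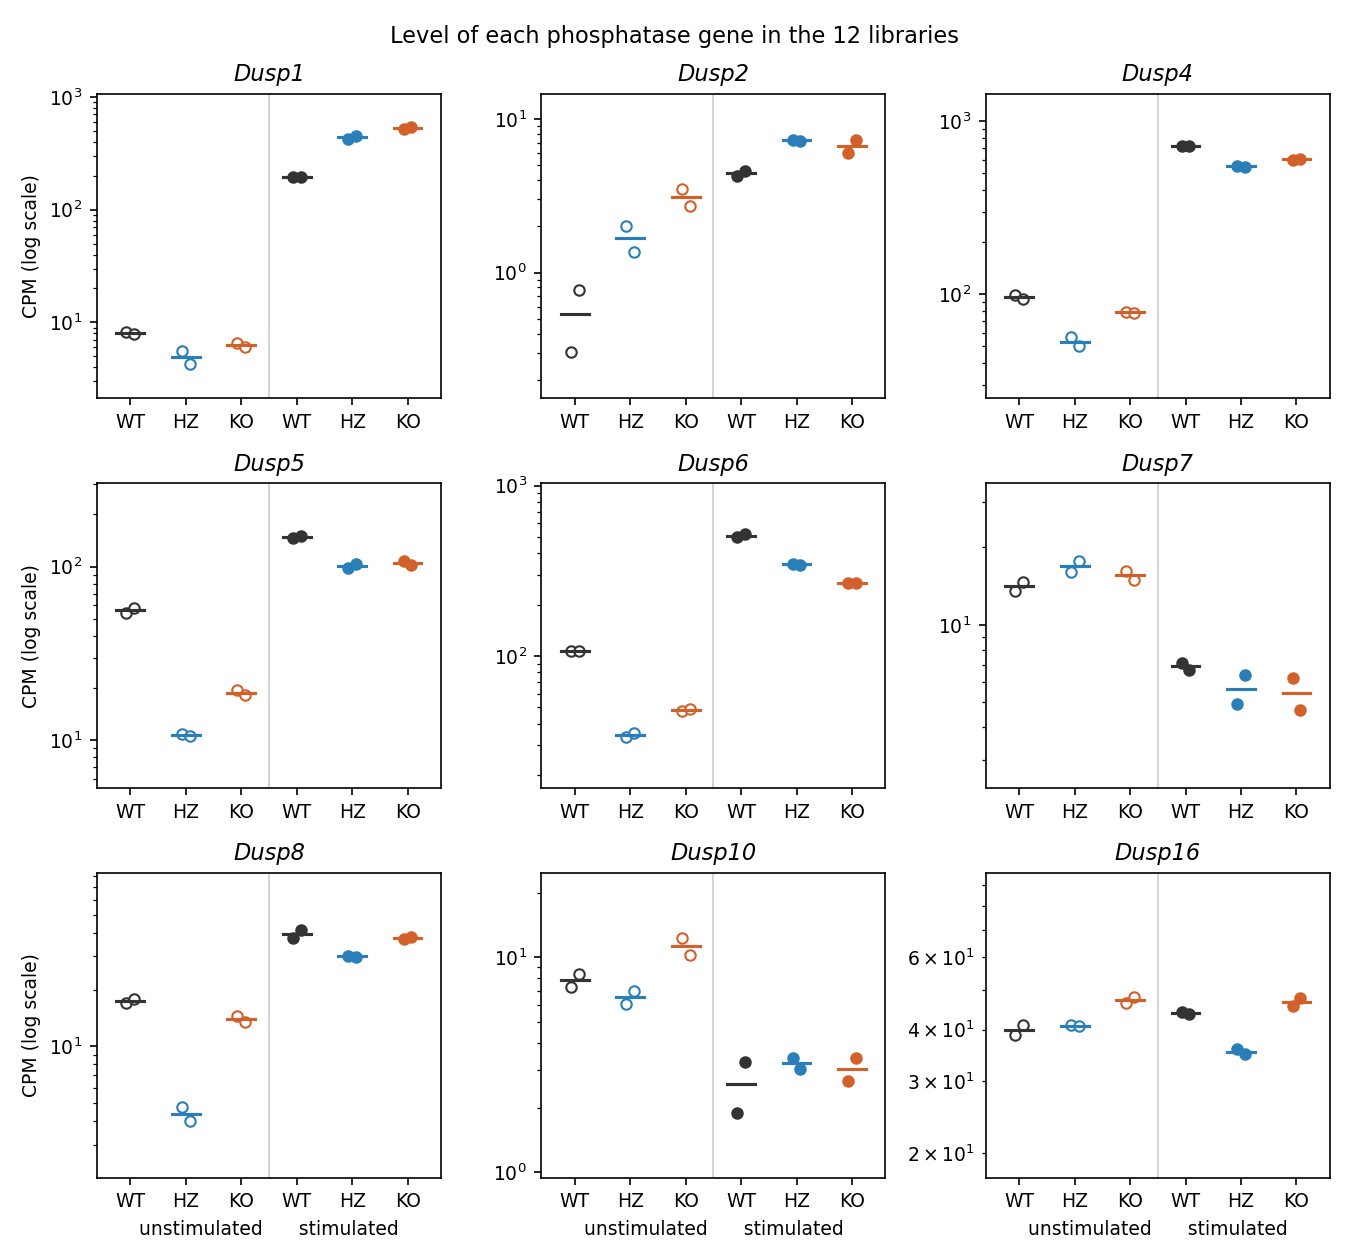
Level of each of the 9 genes in the 12 libraries (y axis, CPM on a log scale that differs between panels), with open circles for untreated and filled circles for stimulated libraries and a bar at the mean of 2 libraries. Stimulated circles lie above untreated ones in 6 panels and below them in those of *Dusp7* and *Dusp10*.

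Among the nuclear phosphatases, *Dusp1*, which acts on JNK, p38 and ERK, had the steepest response. It stood at 8.21 and 7.86 CPM in untreated WT libraries, 5.61 and 4.25 CPM in HZ, and 6.56 and 6.03 CPM in KO. In stimulated libraries it reached 196 and 197 CPM in WT, 426 and 447 CPM in HZ, and 522 and 535 CPM in KO. Untreated levels were thus lowest in HZ and stimulated levels highest in KO, with no overlap between any neighbouring groups. The fold change was 24.5 in WT (log2 4.61, SE 0.058, adjusted p = 1.3e-47), 88.2 in HZ (log2 6.46, SE 0.060, adjusted p = 3.3e-53) and 83.8 in KO (log2 6.39, SE 0.057, adjusted p = 6.9e-54). These are edgeR quasi-likelihood tests with Benjamini-Hochberg adjustment over all genes tested, as are all adjusted p-values below.

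*Dusp2*, known from haematopoietic cells, was the scarcest of the induced genes. It had 10 and 27 counts, or 0.302 and 0.772 CPM, in untreated WT libraries, 2.02 and 1.36 CPM in HZ, and 3.52 and 2.71 CPM in KO. Stimulated libraries held 4.28 and 4.60 CPM in WT, 7.37 and 7.27 CPM in HZ, and 6.04 and 7.33 CPM in KO. Untreated levels were ordered WT, HZ and KO from low to high without overlap, whereas stimulated HZ and KO overlapped. The log2 fold change was 3.02 in WT (SE 0.30, adjusted p = 1.1e-11), 2.11 in HZ (SE 0.25, adjusted p = 2.7e-10) and 1.10 in KO (SE 0.23, adjusted p = 9.9e-05). Leaving out 1 library gave 2.52 to 3.87 for the WT value, the latter without untreated WT replicate 2. The KO response was under 2-fold without untreated KO replicate 2 (log2 0.92) or without stimulated KO replicate 2 (log2 0.95), and 0.81 on the log2 scale when libraries were scaled by their totals.

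*Dusp4*, the most abundant of the 9 per gene length in every group but stimulated KO, and within the SD of *Dusp1* in stimulated HZ, stood at 99.2 and 93.7 CPM in untreated WT, 56.3 and 50.002 CPM in HZ, and 79.2 and 77.8 CPM in KO. With stimulation it reached 719 and 725 CPM in WT, 553 and 546 CPM in HZ, and 599 and 608 CPM in KO. HZ was lowest in both states and WT highest, with no overlap. It rose 7.49-fold in WT (log2 2.90, SE 0.037, adjusted p = 2.6e-47), 10.3-fold in HZ (log2 3.37, SE 0.039, adjusted p = 4.9e-49) and 7.69-fold in KO (log2 2.94, SE 0.037, adjusted p = 2.3e-47).

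*Dusp5*, whose product is a nuclear phosphatase of ERK, stood at 54.4 and 57.5 CPM in untreated WT, 10.9 and 10.6 CPM in HZ, and 19.6 and 18.2 CPM in KO. Stimulated levels were 147 and 151 CPM in WT, 98.5 and 103 CPM in HZ, and 108 and 102 CPM in KO, so that WT was highest in both states while stimulated HZ and KO overlapped. The gene rose 2.66-fold in WT (log2 1.41, SE 0.053, adjusted p = 1.7e-27), 9.34-fold in HZ (log2 3.22, SE 0.066, adjusted p = 1.4e-38) and 5.57-fold in KO (log2 2.48, SE 0.060, adjusted p = 2.2e-35).

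The cytoplasmic pair of ERK phosphatases moved in opposite directions. *Dusp6* stood at 107 and 106 CPM in untreated WT, 33.4 and 35.0 CPM in HZ, and 47.2 and 48.9 CPM in KO. It reached 498 and 516 CPM in stimulated WT, 347 and 340 CPM in HZ, and 268 and 269 CPM in KO. WT was highest in both states, and no groups overlapped. Its rise was 4.76-fold in WT (log2 2.25, SE 0.036, adjusted p = 5.2e-43), 10.1-fold in HZ (log2 3.33, SE 0.041, adjusted p = 5.5e-48) and 5.59-fold in KO (log2 2.48, SE 0.039, adjusted p = 2.3e-43).

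*Dusp7* fell from 13.6 and 14.7 CPM to 7.10 and 6.68 CPM in WT, from 16.0 and 17.7 to 4.94 and 6.36 in HZ, and from 16.2 and 14.9 to 6.22 and 4.66 in KO. HZ and KO overlapped each other in both states. The log2 fold change was −1.03 in WT (SE 0.14, adjusted p = 2.6e-08), −1.58 in HZ (SE 0.14, adjusted p = 1.1e-13) and −1.52 in KO (SE 0.14, adjusted p = 1.7e-12). The WT value lay at the 2-fold limit and was −0.96 without untreated WT replicate 2 and −0.99 without stimulated WT replicate 2.

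Of the phosphatases that act mainly on JNK and p38, *Dusp8* rose, *Dusp10* fell and *Dusp16* passed the rule in no genotype. *Dusp8* stood at 16.9 and 17.9 CPM in untreated WT, 4.78 and 4.00 CPM in HZ, and 14.4 and 13.5 CPM in KO, and at 37.5 and 41.6 CPM in stimulated WT, 30.2 and 29.9 CPM in HZ, and 37.2 and 37.9 CPM in KO. HZ was lowest in both states, and stimulated WT and KO overlapped. It rose 2.27-fold in WT (log2 1.19, SE 0.089, adjusted p = 7.2e-16), 6.82-fold in HZ (log2 2.77, SE 0.11, adjusted p = 7.8e-27) and 2.69-fold in KO (log2 1.43, SE 0.091, adjusted p = 2.0e-18). The WT rise was under 2-fold when libraries were scaled by their totals (log2 0.88), a scaling that moved the median of all genes by −0.31 in WT, −0.23 in HZ and −0.29 in KO.

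*Dusp10* fell from 7.27 and 8.35 CPM to 1.89 and 3.26 CPM in WT, from 6.05 and 6.97 to 3.41 and 3.01 in HZ, and from 12.3 and 10.2 to 2.66 and 3.41 in KO. Untreated KO was highest, and the stimulated groups overlapped. The log2 fold change was −1.60 in WT (SE 0.20, adjusted p = 6.4e-09), −1.02 in HZ (SE 0.20, adjusted p = 1.9e-05) and −1.89 in KO (SE 0.20, adjusted p = 2.6e-11). The HZ value was at the 2-fold limit, and leaving out untreated HZ replicate 2 or stimulated HZ replicate 2 gave −0.91 or −0.93. With limma on log2(FPKM + 1), which understates changes of low genes, the values were under 2-fold at −0.72 in WT, −0.47 in HZ and −0.95 in KO.

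*Dusp16* lay between 34.9 and 48.0 CPM in all 12 libraries. Its log2 difference between stimulated and untreated cells was 0.13 in WT (SE 0.065, adjusted p = 0.094, −0.17 with scaling by library totals), −0.21 in HZ (SE 0.066, adjusted p = 0.0054) and −0.016 in KO (SE 0.064, adjusted p = 0.87). The 95% interval in KO ran from −0.15 to 0.11.

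**Figure D3:**
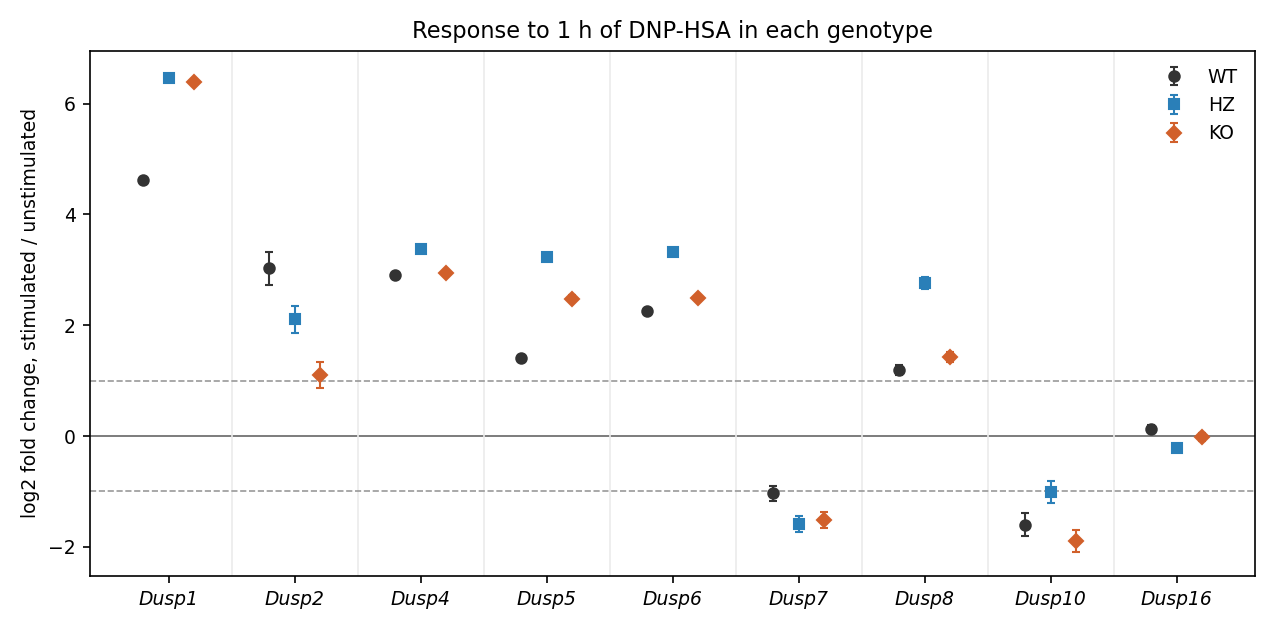
Log2 fold change of each gene from untreated to stimulated cells (y axis) in WT, HZ and KO, with error bars of 1 SE from the edgeR fit and dashed lines at 2-fold. *Dusp1* lies at 4.61 in WT and above 6 in HZ and KO, and *Dusp2* is the induced gene with its largest value in WT.

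Promoter sequences are shown for 4 induced genes because their windows differ in the motifs that ELK4, SRF and the factors activated beside them are known to bind. RefSeq windows of 250 bases before to 50 after the start (build GRCm38.p6, while the counts were made on GRCm39) matched 8 of the 9 genes, all but *Dusp4*. Both strands were searched for the letters GGAA (the ETS core), the CArG box (the SRF motif), TGACGTCA (the CRE) and TGACTCA (the AP-1 site), and no matches to different motifs overlapped in the 8 windows. The 250 upstream bases are given 5′ to 3′ on the strand of the gene, with matches in capitals (TTCC is GGAA read on the other strand), for *Dusp5* (chr19:53528895-53529144, plus strand), *Dusp6* (chr10:99262981-99263230, plus strand), *Dusp1* (chr17:26508473-26508722, minus strand) and *Dusp8* (chr7:142095285-142095534, minus strand).
*Dusp5*: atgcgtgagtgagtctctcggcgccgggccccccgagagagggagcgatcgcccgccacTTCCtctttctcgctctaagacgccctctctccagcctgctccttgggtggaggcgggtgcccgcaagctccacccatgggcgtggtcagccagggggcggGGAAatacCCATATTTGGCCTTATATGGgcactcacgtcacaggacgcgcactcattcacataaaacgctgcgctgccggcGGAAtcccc
*Dusp6*: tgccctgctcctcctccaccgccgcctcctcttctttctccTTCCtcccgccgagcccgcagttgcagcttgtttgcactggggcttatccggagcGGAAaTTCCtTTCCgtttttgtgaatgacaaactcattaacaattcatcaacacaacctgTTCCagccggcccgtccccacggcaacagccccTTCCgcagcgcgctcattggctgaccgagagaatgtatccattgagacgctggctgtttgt
*Dusp1*: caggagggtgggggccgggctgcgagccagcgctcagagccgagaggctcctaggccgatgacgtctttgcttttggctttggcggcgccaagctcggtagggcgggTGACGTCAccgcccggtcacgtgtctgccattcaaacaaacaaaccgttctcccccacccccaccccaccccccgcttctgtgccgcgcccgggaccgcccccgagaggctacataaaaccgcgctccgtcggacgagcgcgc
*Dusp8*: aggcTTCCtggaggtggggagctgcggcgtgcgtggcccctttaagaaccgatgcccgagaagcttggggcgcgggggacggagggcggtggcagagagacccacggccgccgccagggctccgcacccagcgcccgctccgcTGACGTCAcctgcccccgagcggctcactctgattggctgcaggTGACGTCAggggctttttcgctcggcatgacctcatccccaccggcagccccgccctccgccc

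*Dusp5* had 2 adjacent CArG boxes, from −82 to −73 and from −72 to −63 relative to the start, with GGAA from −90 to −87. A CArG box was present in 1.63% of all 32851 windows and in 1 of the 8 windows of these genes. The CRE was present in *Dusp1* (−143 to −136) and in 2 copies in *Dusp8* (−107 to −100 and −63 to −56), against 1.79% of all windows. *Dusp6* had 6 GGAA matches in the window, a motif held by 96% of all windows and by 6 of these 8. TGACTCA was in 5.2% of all windows and in 0 of the 8. Matches describe letters in these windows and not binding.

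Without stimulation, the libraries labelled HZ differed from WT in 6 of the 9 genes, and those labelled KO in 3. The rule here was an adjusted p below 0.05 with a difference of at least 1.5-fold. In HZ, *Dusp1*, *Dusp4*, *Dusp5*, *Dusp6* and *Dusp8* were lower and *Dusp2* was higher, where 9.29% of all genes were lower and 7.63% higher. In KO, *Dusp5* and *Dusp6* were lower and *Dusp2* was higher, where 7.81% of all genes were lower and 4.96% higher. HZ and KO were compared with the same WT libraries, so the values of both stand side by side and their likeness is not a separate result. The median log2 difference of the 9 genes was −0.70 in HZ and −0.30 in KO, beside 0.0018 and 0.018 over all genes.

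*Dusp5* had the largest difference of the lowered genes in both genotypes, 5.19-fold lower than WT in HZ (log2 −2.38, SE 0.068, adjusted p = 9.8e-32) and 2.96-fold lower in KO (log2 −1.57, SE 0.062, adjusted p = 4.4e-26). *Dusp6* was 3.11-fold lower in HZ (log2 −1.64, SE 0.043, adjusted p = 1.9e-33) and 2.22-fold lower in KO (log2 −1.15, SE 0.040, adjusted p = 4.9e-28). These are the ERK-selective enzymes that rose with stimulation. *Dusp8* was 3.95-fold lower in HZ (log2 −1.98, SE 0.11, adjusted p = 3.0e-20), and its log2 difference in KO was −0.32 (SE 0.095, adjusted p = 0.0052), short of 1.5-fold. *Dusp4* was 1.81-fold lower in HZ (log2 −0.86, SE 0.041, adjusted p = 5.9e-23), with a difference of −0.30 in KO (SE 0.039, adjusted p = 1.6e-08).

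*Dusp1* was 1.62-fold lower in HZ (log2 −0.70, SE 0.100, adjusted p = 6.8e-08), or −0.52 without untreated HZ replicate 2, and its difference in KO was −0.35 (SE 0.093, adjusted p = 0.0018). *Dusp2* went the other way, 3.11-fold higher in HZ (log2 1.64, SE 0.34, adjusted p = 5.9e-05) and 5.72-fold higher in KO (log2 2.52, SE 0.31, adjusted p = 2.9e-09). The WT level of this gene rested on 10 and 27 counts. Leaving out 1 library gave log2 differences of 1.13 to 2.47 in HZ and 2.01 to 3.36 in KO, with the upper values without untreated WT replicate 2. *Dusp10* differed by 0.53 in KO (SE 0.17, adjusted p = 0.011), and was past 1.5-fold without untreated WT replicate 2 (0.64) or without untreated KO replicate 2 (0.66). *Dusp7* differed by 0.26 in HZ (adjusted p = 0.090) and 0.14 in KO (adjusted p = 0.39), and *Dusp16* by 0.03 in HZ (adjusted p = 0.72) and 0.24 in KO (adjusted p = 0.0021).

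After stimulation, 3 of the 9 genes passed the same rule against WT in KO and 2 in HZ. *Dusp1* and *Dusp2* were higher in both genotypes, and *Dusp6* was lower in KO. Of all genes, 5.44% passed as higher and 7.32% as lower for KO, and 3.56% as higher and 4.45% as lower for HZ. *Dusp1* was 2.69-fold higher in KO (log2 1.43, SE 0.039, adjusted p = 1.2e-32) and 2.22-fold higher in HZ (log2 1.15, SE 0.038, adjusted p = 1.3e-28). *Dusp6* was 1.89-fold lower in KO (log2 −0.92, SE 0.034, adjusted p = 4.7e-27) and had a difference of −0.56 in HZ (SE 0.033, adjusted p = 7.2e-19), just short of 1.5-fold.

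*Dusp2* was 1.65-fold higher in stimulated HZ (log2 0.72, SE 0.22, adjusted p = 0.0093), a call lost without stimulated WT replicate 1 (log2 0.67, adjusted p = 0.071). In KO it lay at the limit, at 1.51-fold (log2 0.59, SE 0.23, adjusted p = 0.032), and the call was lost without stimulated WT replicate 1 (log2 0.54), without stimulated WT replicate 2 (log2 0.65, adjusted p = 0.077), without stimulated KO replicate 2 (log2 0.44) and with DESeq2 (log2 0.58, adjusted p = 0.054). This KO call was lost in 9 of 15 alternatives, also with limma on FPKM and in a fit of only the groups compared. *Dusp5* had differences of −0.50 in KO (SE 0.051, adjusted p = 1.5e-11) and −0.56 in HZ (SE 0.051, adjusted p = 6.2e-13). The HZ value passed 1.5-fold with DESeq2 (−0.59) and without stimulated HZ replicate 2 (−0.60).

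The remaining genes lay within 1.5-fold of WT after stimulation. *Dusp4* differed by −0.26 in KO and −0.39 in HZ (adjusted p = 7.0e-09 and 6.3e-14), and *Dusp8* by −0.07 in KO and −0.40 in HZ (adjusted p = 0.53 and 0.00019). *Dusp16* differed by 0.09 in KO and −0.31 in HZ (adjusted p = 0.31 and 0.00019). For *Dusp7* the differences were −0.34 and −0.29 (adjusted p = 0.076 and 0.14). Those of *Dusp10*, whose product acts on JNK and p38, were 0.24 and 0.32 (adjusted p = 0.44 and 0.28), with 95% intervals from −0.22 to 0.70 in KO and from −0.13 to 0.78 in HZ. Without stimulated WT replicate 2, *Dusp10* in HZ passed (0.77, adjusted p = 0.030).

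**Figure D4:**
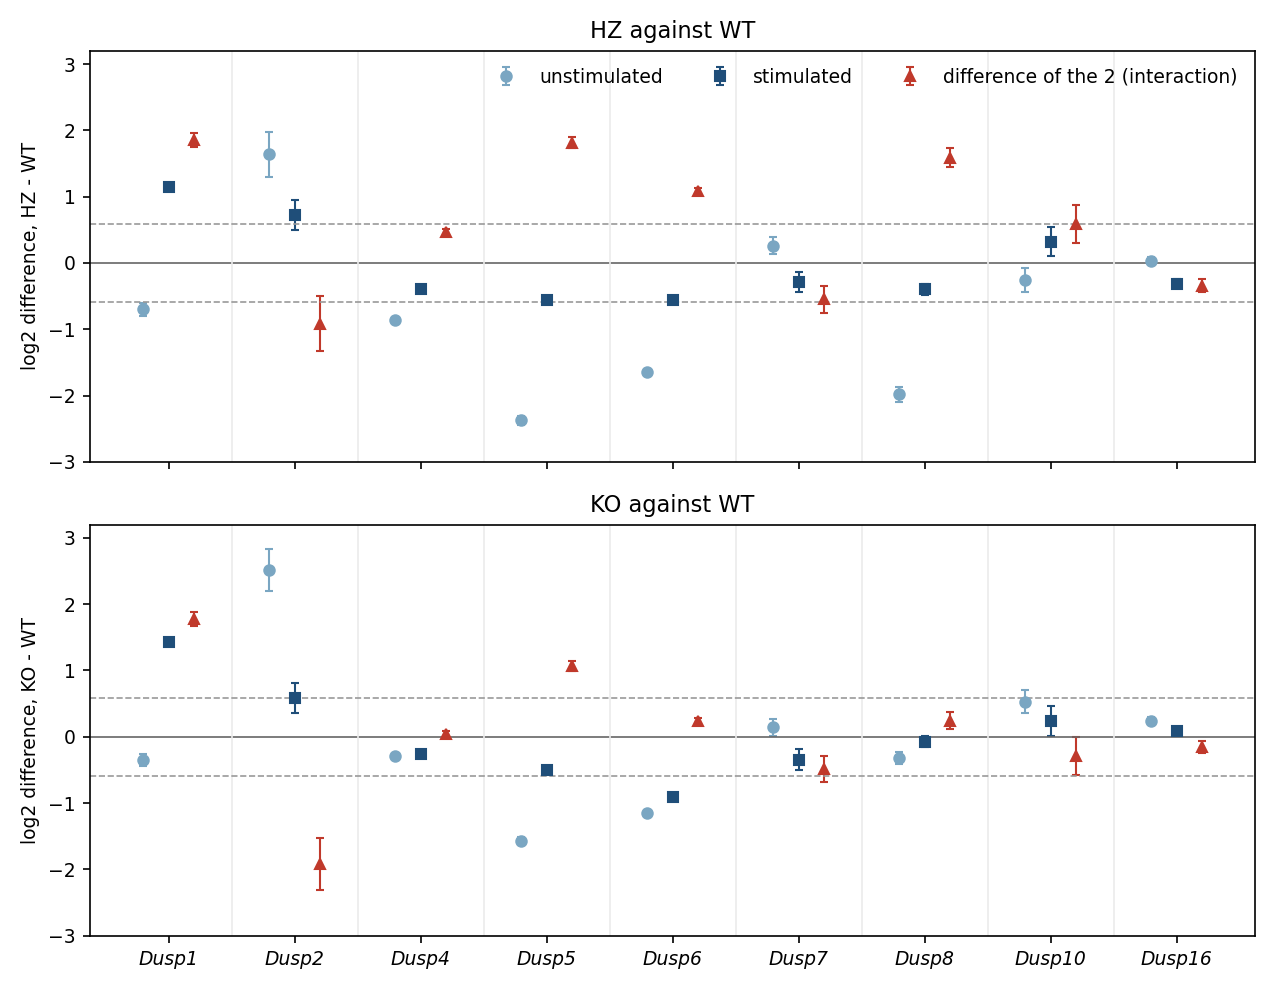
Log2 difference of HZ (upper panel) and KO (lower panel) from WT for each gene, in untreated cells (circles), in stimulated cells (squares) and as the difference between these (triangles, the interaction), with error bars of 1 SE and dashed lines at 1.5-fold. In HZ the untreated values of *Dusp5*, *Dusp6* and *Dusp8* lie between −2.38 and −1.64 and their stimulated values between −0.56 and −0.40.

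Whether the response itself differed from that of WT was tested as an interaction, the stimulated difference minus the untreated one, at an adjusted p below 0.05 with no fold limit. In KO the response was larger for *Dusp1*, *Dusp5* and *Dusp6* and smaller for *Dusp2*, where 5.44% of all genes had a positive and 3.83% a negative interaction. In HZ, 19.9% of all genes had a positive and 18.6% a negative interaction, so the background was high. There it was positive for *Dusp1*, *Dusp4*, *Dusp5*, *Dusp6* and *Dusp8* and negative for *Dusp7* and *Dusp16*.

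The *Dusp1* response was larger by 1.78 on the log2 scale in KO (SE 0.10, adjusted p = 4.7e-19) and by 1.85 in HZ (SE 0.11, adjusted p = 1.7e-19), and here the stimulated level exceeded that of WT. For *Dusp5* the interaction was 1.07 in KO (SE 0.080, adjusted p = 1.0e-14) and 1.81 in HZ (SE 0.086, adjusted p = 1.3e-22), and for *Dusp6* it was 0.23 in KO (SE 0.053, adjusted p = 0.0019) and 1.08 in HZ (SE 0.054, adjusted p = 1.2e-21). In both genes the level was below that of WT in either state, so that the larger fold started from a lower untreated level. The same held for *Dusp8* in HZ, with an interaction of 1.58 (SE 0.14, adjusted p = 5.8e-13), and for *Dusp4* in HZ, with 0.46 (SE 0.053, adjusted p = 4.5e-10).

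*Dusp2* had a smaller response in KO by −1.92 (SE 0.39, adjusted p = 5.0e-04), with a higher untreated level. Leaving out 1 library gave −2.78 (untreated WT replicate 2) to −1.42. The call was lost with limma on log2(FPKM + 1) without a filter (−0.75, adjusted p = 0.12). Its interaction in HZ was −0.92 (SE 0.41, adjusted p = 0.073), and it passed without untreated WT replicate 2 (−1.76, adjusted p = 0.0070) or without untreated HZ replicate 2 (−1.17, adjusted p = 0.029). *Dusp7* fell further in HZ by −0.55 (SE 0.20, adjusted p = 0.026). That call was lost without any 1 of 4 libraries, namely untreated WT replicate 1 (−0.49), stimulated WT replicate 1 (−0.50), untreated HZ replicate 2 (−0.49) and stimulated HZ replicate 1 (−0.37). The call was also lost when libraries were scaled by their totals (−0.47, adjusted p = 0.055) and with limma on FPKM (−0.34 or −0.46, depending on the pseudocount). The *Dusp7* value in KO was −0.49 (adjusted p = 0.14), and it passed without stimulated KO replicate 1 (−0.71, adjusted p = 0.049).

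*Dusp16* had an interaction of −0.34 in HZ (SE 0.093, adjusted p = 0.0026) and −0.15 in KO (adjusted p = 0.37). *Dusp10* had 0.59 in HZ (SE 0.29, adjusted p = 0.11) and −0.29 in KO (SE 0.29, adjusted p = 0.63), and the HZ value passed without stimulated WT replicate 2 (1.04, adjusted p = 0.0095). In KO, *Dusp4* had 0.04 (SE 0.051, adjusted p = 0.74), with a 95% interval from −0.06 to 0.14, and *Dusp8* had 0.24 (SE 0.13, adjusted p = 0.27).

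Other genes of the pathway were counted as lists, read against the percentages above. Among 12 known immediate-early targets of ternary complex factors, 10 rose in WT, 11 in HZ and 11 in KO, and none fell. *Fos*, a subunit of AP-1, had a log2 fold change of 5.18 in WT, 7.99 in HZ and 6.34 in KO, *Egr1*, a zinc finger factor, had 3.12, 5.13 and 4.03, and *Nr4a1*, an orphan nuclear receptor, had 4.40, 7.64 and 5.88. The others called in WT were *Fosb*, *Egr2*, *Egr3*, *Ier2*, *Junb*, *Arc* and *Zfp36*. In untreated cells 9 of the 12 were lower in HZ and 8 lower and 1 higher in KO than in WT, with a median of −1.57 and −0.78. After stimulation 0 of the 12 passed the rule in either genotype by edgeR, DESeq2 or limma, while 9 in HZ and 10 in KO had an unadjusted edgeR p below 0.05. Of all genes, 34.9% in HZ and 40.4% in KO had an adjusted p below 0.05, and the share at an unadjusted p was not computed. Several had an adjusted p below 0.05 and missed only the 1.5-fold limit, in both directions. *Egr2* differed by −0.51 in KO and −0.25 in HZ (adjusted p = 4.5e-22 and 3.5e-11). *Zfp36* differed by 0.50 in KO and 0.54 in HZ (adjusted p = 1.3e-12 and 2.3e-13). The stimulated differences of the 12 genes had a median of 0.0017 in HZ and −0.02 in KO, beside 0.023 and 0.021 over all genes.

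Of the Sprouty and Spred inhibitors of ERK signalling, 6 of 7 were tested. Stimulation raised *Spry1*, *Spry2* and *Spry4* in WT and HZ and the former pair in KO, and *Spred3* fell in HZ. The missing *Spry4* call in KO does not mark a smaller response. Its log2 fold change was 1.53 in WT and 1.45 in KO (adjusted p = 0.0056 and 0.067), with a KO interaction of −0.08 (adjusted p = 0.98). DESeq2 called 3 of these inhibitors for the KO response. *Spry2* rose by 3.26 on the log2 scale in WT, 4.15 in HZ and 3.77 in KO. *Spry4* stood at 1.12 ± 0.0014 CPM (SD, n = 2) in untreated WT and at 3.23 ± 0.34 CPM in stimulated WT, with 0.57 ± 0.26 CPM in stimulated KO and 0.62 ± 0.23 CPM in stimulated HZ. *Spry1* stood at 0.074 ± 0.024 CPM in untreated WT and at 7.55 ± 0.20, 14.7 ± 0.12 and 32.0 ± 2.36 CPM in stimulated WT, HZ and KO. The stimulated level of *Spry1* was thus above that of WT in HZ and KO, as for *Dusp1*, and that of *Spry4* below it, as for *Dusp6*. Unlike *Dusp1*, *Spry1* was also higher than WT in untreated KO, at 0.30 ± 0.13 CPM (log2 1.98, adjusted p = 0.0072). Its interaction in KO was 0.10 (adjusted p = 0.99). Counts of *Spry1* and *Spry4* were as low as 1 and 0 in a library. Other inhibitors ran otherwise. The stimulated difference of *Spry2* was −0.03 in KO and −0.06 in HZ (adjusted p = 0.66 and 0.40), and *Spred3* passed as higher in KO (0.59, adjusted p = 0.0023).

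Of 11 genes of MAP kinases, the substrates of these enzymes, 9 were tested and 0 passed the rule for the response in any genotype by edgeR, DESeq2 or limma. At an unadjusted edgeR p below 0.05 there were 3 in WT, 3 in HZ and 4 in KO. Of all genes, 45.3% in WT, 64.4% in HZ and 40.8% in KO had even an adjusted p below 0.05 for the response. The shares at an unadjusted p were not computed and can only be higher, also for the phosphatase counts below. Of 18 upstream kinases, 2 rose in WT, *Map3k8*, a kinase that activates the ERK cascade (log2 4.31), and *Map2k3*, an activator of p38 (log2 1.03). In KO the same pair rose, and in HZ *Map3k8* rose and *Map3k1* fell. Among 17 other dual-specificity phosphatases, 12 were tested and 0 passed for the response in any genotype by edgeR, DESeq2 or limma, against 4, 3 and 3 at an unadjusted edgeR p below 0.05 in WT, HZ and KO, with a median of 0.05 in WT, −0.04 in HZ and 0.0031 in KO.

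The genes whose levels ran most like those of the called phosphatases were sought by Pearson's r of log2 CPM over the 12 libraries, which share their normalization and fall into 2 states, so that r is a description only. For *Dusp6* these were *Errfi1*, an inhibitor of EGF receptor signalling (r = 0.998), and *Cdkn1a*, an inhibitor of cyclin-dependent kinases (0.992). For *Dusp1* they were *Btbd19* (0.997) and *Cxcl2*, a neutrophil chemokine (0.997), and for *Dusp4* the one named is *Tob2* (0.998). *Dusp5* ran with *Sfpq* (0.988) and *Egr4* (0.987), *Dusp8* with *Bicd2* (0.991) and *Mdn1* (0.989), and *Dusp2* with *Capza2* (0.967) and *Mtdh* (0.963). A high r does not mean a change of like size. In WT, HZ and KO the log2 fold change was 0.23, 0.13 and 0.12 for *Capza2* and 0.24, 0.39 and 0.32 for *Sfpq*. The falling *Dusp7* ran with *Klhl25* (0.994) and *Zfp729b* (0.986), and *Dusp10* with *Irf2bpl* (0.973) and *Iqcc* (0.965). *Cxcl2* had a log2 fold change of 6.82 in WT, 11.3 in HZ and 11.1 in KO, and *Btbd19* had 1.44, 1.78 and 1.82. Both were chosen for their likeness to *Dusp1*.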

How the data were processed

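RNA of BMMCs was sequenced in 12 libraries. The authors deposited read counts per gene, raw and without normalization, and FPKM values of the same genes, scaled by gene length and library total. Per the labels, reads were handled with fastp, HISAT2 and HTSeq on GRCm39, with no versions given, and whether counting used strand is not given in the sources used here. The deposited columns were all mapped to libraries by their names.

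The counts were tested with edgeR 4.0.16 in R 4.3.3, after filterByExpr and TMM scaling (1.08 to 1.12 untreated, 0.902 to 0.924 stimulated), in 1 quasi-likelihood fit of the 6 group means (prior count 0.125). The spread of a gene was estimated with 38.9 prior degrees of freedom, shared across genes, against 6 residual ones. Small p-values therefore do not rest on the gene's own libraries alone. Two-sided p-values were adjusted over 12208 genes by the Benjamini-Hochberg method. The SE is the log2 fold change divided by the root of the F statistic, and is approximate. The fit was tested on simulated data.

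Depth was 29697958 to 35531667 counts, and intervals cover the fitted spread of 2 libraries per group. Replicates differed beyond sampling noise (chi-square per degree of freedom of 2.94 to 5.16). Alternatives were DESeq2 1.42.0, other scalings, filters and thresholds, a replicate block, leaving out each library, and limma 3.58.1 on log2(FPKM + 1) or log2(FPKM + 0.1), where the FPKM filter was a mean of 0.5, or without it. The 9 genes and the lists were chosen with earlier results of these data known. The rule for naming took all 9, the list genes called in the WT response, and the 2 genes most correlated with each of the 9 called in WT. *Spred3* and *Map3k1* were named after their values were seen, and 1 correlated gene is not reported here. Promoters were read from RefSeq windows, and protein sequences were not used here.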

Additional observations from a re-analysis of the deposited data

Results flagged for a closer look

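The response to stimulation differed from that of WT by the interaction test of edgeR in 4 of the 9 genes in KO and in 7 in HZ, where 9.27% and 38.5% of all genes passed. In KO the difference in log2 fold change was 1.78 for *Dusp1*, 1.07 for *Dusp5*, 0.23 for *Dusp6* and −1.92 for *Dusp2*. In HZ it was 1.85 for *Dusp1*, 1.81 for *Dusp5*, 1.58 for *Dusp8*, 1.08 for *Dusp6*, 0.46 for *Dusp4*, −0.55 for *Dusp7* and −0.34 for *Dusp16*. *Dusp1* stood apart from the other genes with larger responses in that its stimulated level, and not its untreated level, was above that of WT in both genotypes. Groups of 2 libraries allowed no test for a deviating library.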

How the results depend on the processing

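Over 81 values (9 genes in 9 comparisons) and 1332 recomputed values, 1261 kept their direction and their side of the threshold, 45 fell short of it, 10 passed it and 16 changed sign. With library totals in place of TMM, *Dusp16* in WT was −0.17, and limma on FPKM gave −0.15 or −0.17, depending on the pseudocount. For untreated HZ against WT its value was −0.018 with library totals and −0.016, −0.017 and −0.016 with limma. The cause was not tested. Leaving out 1 library gave −0.050 to 0.016 for *Dusp16* in KO, −0.0078 to 0.068 for *Dusp16* in untreated HZ against WT, −0.10 to 0.69 for *Dusp10* in stimulated KO, −0.017 to 0.77 for *Dusp10* in stimulated HZ, −0.15 to 0.0045 for *Dusp8* in stimulated KO, −0.0038 to 0.057 for the interaction of *Dusp4* in KO and −0.63 to 0.16 for that of *Dusp10* in KO.

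Limma on log2(FPKM + 1), with or without the filter, called 5 genes in place of 8 for the KO response (*Dusp2*, *Dusp8* and *Dusp10* lost), 6 for WT (*Dusp8* and *Dusp10* lost) and 7 for HZ (*Dusp10* lost), and limma on FPKM called 1 in place of 2 for stimulated HZ against WT. Without the fold threshold, 8 in place of 3 genes passed for untreated KO, 5 in place of 3 for stimulated KO and 7 in place of 2 for stimulated HZ, where 44.6%, 40.4% and 34.9% of all genes passed. Leaving out 1 library gave 1 to 3 calls for stimulated HZ, with 1 call without stimulated WT replicate 1, and 3 without stimulated WT replicate 2 or stimulated HZ replicate 2.

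Same-numbered libraries did not deviate together, with r of −0.0226 in WT, 0.0629 in HZ and −0.0207 in KO over 9858 genes, and the labels do not say what the numbers mark. With the replicate block, the numbers of calls stayed at 8, 8 and 8 for the responses, 3 and 6 for untreated and 3 and 2 for stimulated KO and HZ, and 4 and 7 for the interactions. With 2 libraries per group, genes of few counts such as *Dusp2* and *Dusp10* had SEs of 0.17 to 0.41. Differences well above the SE could still miss the adjusted p limit. Examples are the edgeR interactions in HZ of *Dusp2* (−0.92, SE 0.41, adjusted p = 0.073) and *Dusp10* (0.59, SE 0.29, adjusted p = 0.11).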
